A study of Mus musculus with 36 samples.

Results

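A set of 9 genes of enzymes that bring pyruvate into the citrate cycle or turn the cycle itself was followed through brown adipocyte differentiation. They were chosen by name, *Pcx*, *Pdha1*, *Cs*, *Idh2*, *Idh3a*, *Ogdh*, *Sucla2*, *Fh1* and *Mdh2*, and all 9 were found among the 55536 genes of the count tables. The 36 RNA sequencing libraries came from mouse brown pre-adipocyte lines in which *Rxra*, the gene of the retinoid X receptor α, had been disrupted with Cas9. Both knockout lines, clone 48 and clone 66, were derived from a clonal wild-type line, and each is itself 1 monoclonal population. A retrovirus (pBabe Hygro) returned either wild-type *Rxra* (*Rxra*WT) or a serine-to-alanine mutant (*Rxra*SA) to both, so that every library carried the disrupted gene together with a re-expressed one. Day 0 was confluence in medium with insulin and triiodothyronine. Dexamethasone, isobutylmethylxanthine and indomethacin were added from day 0 to day 2, and the cells were kept in insulin and triiodothyronine until day 6. Each clone, genotype and day had 3 replicates. The deposited description calls them technical and the study independent, so p-values measure only the spread between these libraries. All libraries of clone 48 were in library pool 1 and all of clone 66 in pool 2, and clone and pool cannot be told apart.

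The citrate cycle is the mitochondrial ring of reactions that oxidizes acetyl groups and passes the electrons to the respiratory chain. Pyruvate enters it by a pair of doors. Pyruvate dehydrogenase, whose catalytic α subunit is encoded by *Pdha1*, makes acetyl-CoA, and pyruvate carboxylase (*Pcx*) makes oxaloacetate. Adipocytes use both, because citrate that leaves the mitochondrion carries acetyl groups for fatty acid synthesis and oxaloacetate has to be replaced. Brown adipocytes are in addition rich in mitochondria, whose oxidative capacity serves heat production.

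The libraries held between 11351078 and 24349263 counts, with a median of 18338726. The lowest count of any of the 9 enzymes in any library was 386, so counting error was small beside the spread between libraries. Of 36 marker genes examined, the 6 of adipocytes had a summed level with a median of 168 CPM (counts scaled to library size) at day 0, 4578 at day 2 and 7625 at day 6. The 7 brown markers had a summed median of 8.82 CPM at day 0, 30.3 at day 2 and 22.8 at day 6. Those under 1 CPM in every library of a day numbered 6 at day 0, 4 at day 2 and 3 at day 6. The levels of *Dio2*, *Prdm16* and *Elovl3* are not given here. *Ucp1*, the uncoupling protein, had at most 0.307 CPM and *Cidea* at most 1.66 CPM in any library, *Zic1* was at 0 in every library of days 0 and 6, and *Ebf2* was the brown marker with the highest level, up to 78.8 CPM. The 5 markers of pre-adipocytes went from a summed median of 350 CPM at day 0 to 67.5 at day 2 and 85.8 at day 6. Markers of proliferating cells were still present at day 6 (summed median 1647 CPM, against 2618 at day 0), and the markers of endothelial and epithelial cells each summed to at most 0.872 and 0.648 CPM. The leukocyte markers summed to at most 11.3 CPM, nearly all from *Cd68*, and the muscle markers to at most 30.1 CPM at day 6, nearly all from *Des*. In bulk RNA, more cells of a type and more RNA per cell cannot be told apart. *Rxra* itself was read in every library, between 92.6 and 712 CPM, and since both genotypes carry the retrovirus its level does not check the labels.

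Coordinates are those of GRCm38 in GENCODE M21. *Fh1* lies at chr1:175600374-175625635 on the minus strand, *Mdh2* at chr5:135778480-135790398 on the plus strand, and *Idh2* at chr7:80094846-80115392 on the minus strand. *Idh3a* lies at chr9:54586334-54604661, *Cs* at chr10:128337734-128362479 and *Ogdh* at chr11:6291633-6356642, all on the plus strand. *Sucla2* lies at chr14:73525319-73596142 and *Pcx* at chr19:4510472-4621752 on the plus strand, and *Pdha1* at chrX:160122209-160138413 on the minus strand. Values are exonic read pairs of each whole gene. Only *Pdha1* shares exonic bases with another gene, 603 bases with *Map3k15* on the opposite strand, a gene with 762 counts over all libraries together, and the counting did not use the strand. Of the 36-base stretches of *Cs* transcripts, 4.3% also occur in other genes, most of them in the retrogene *Csl*, which never exceeded 0.681 CPM.

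RefSeq start sites were given for 8 of the 9 enzymes, 14 starts in all. A set of 6 motifs of factors known to act on mitochondrial or hormone-responsive genes were searched on both strands of the 250 bases before each start. They were the CREB palindrome TGACGTCA, the NRF1 core GCGCATGCG, the ETS core CCGGAAG, the ERR site TCAAGGTCA, the receptor hexamer AGGTCA, which the ERR site contains, and a direct repeat of looser hexamers spaced by 1 base. In the repeat each hexamer was RGKTCA, where R is A or G and K is G or T. The CREB palindrome was found before the RefSeq start of *Mdh2* and before 3 overlapping starts of *Ogdh*, and is held by 1.55% of all 32851 promoters. The NRF1 core was found before another pair of *Ogdh* starts (1.45% of all promoters), and the hexamer before *Fh1* and *Sucla2* (14% of all). The ETS core (6.91% of all), the ERR site (0.387%) and the direct repeat (0.164%) were not among these letters. A match is a description of letters, and no binding was measured. The windows of *Mdh2* and *Ogdh*, the pair whose profiles below were closest to each other, are shown with the CREB palindrome in capitals, beside that of *Pcx*, the enzyme with the largest change between days 0 and 6, whose 2 windows held none of the motifs. They are GRCm38.p6, plus strand, chr5:135778399-135778648, chr11:6291409-6291658 and chr19:4510222-4510471, and end at the base before the start. In them the palindrome spans bases -127 to -120 of *Mdh2* and -113 to -106 of *Ogdh*. That of *Mdh2* lies before the RefSeq start but inside the GENCODE gene, whose annotated start is further upstream.
Mdh2: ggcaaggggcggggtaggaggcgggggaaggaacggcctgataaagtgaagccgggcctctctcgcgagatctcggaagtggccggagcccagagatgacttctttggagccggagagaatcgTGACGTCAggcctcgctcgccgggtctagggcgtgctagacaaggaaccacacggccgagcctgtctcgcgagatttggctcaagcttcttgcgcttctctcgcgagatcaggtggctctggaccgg
Ogdh: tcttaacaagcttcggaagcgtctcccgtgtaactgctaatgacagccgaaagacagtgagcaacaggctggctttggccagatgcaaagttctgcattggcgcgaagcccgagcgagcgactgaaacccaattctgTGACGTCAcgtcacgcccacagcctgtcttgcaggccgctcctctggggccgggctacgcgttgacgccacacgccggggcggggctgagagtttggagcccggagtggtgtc
Pcx: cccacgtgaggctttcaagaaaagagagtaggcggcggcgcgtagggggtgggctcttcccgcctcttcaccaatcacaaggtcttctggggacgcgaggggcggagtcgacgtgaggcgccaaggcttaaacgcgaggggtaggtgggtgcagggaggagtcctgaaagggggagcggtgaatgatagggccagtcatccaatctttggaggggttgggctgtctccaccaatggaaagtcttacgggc

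Per kilobase of exon, the order of the enzymes changed with differentiation. At day 0 the highest was *Idh2*, the NADP-dependent mitochondrial isocitrate dehydrogenase, at 117 ± 20.4 RPKM (CPM divided by exon length in kilobases, SD, n = 12), above the next, *Pdha1*, in 12 of 12 libraries and without overlap of their ranges. *Idh3a*, the catalytic subunit of the NAD-dependent isocitrate dehydrogenase, was the lowest at 13.5 ± 5.14 RPKM. At day 2 *Pcx* led at 314 ± 75.6 RPKM and *Idh3a* came next at 206 ± 36.9 RPKM. *Pcx* was the higher of this pair in 12 of 12 libraries, although their ranges over libraries overlapped. At day 6 *Pcx* was again first at 340 ± 135 RPKM, above *Cs* at 146 ± 37.8 RPKM in 12 of 12 libraries, and *Ogdh* was the lowest on both days (44.9 ± 21.2 and 39.0 ± 21.2 RPKM). The lowest place was less clear than the highest. *Sucla2* was above *Ogdh* in only 6 of 12 libraries at day 2 and 7 of 12 at day 6. At day 0 *Ogdh* was above *Idh3a* in only 7 of 12. The ranges of all neighbours overlapped, except *Idh2* with *Pdha1* at day 0 and *Idh2* with *Sucla2* at day 2. From *Cs* to *Pdha1* at day 6, each enzyme was above the next in only 5 to 8 of 12 libraries. The 9 enzymes together took 0.152% ± 0.0139 of all counts at day 0, 0.492% ± 0.0701 at day 2 and 0.474% ± 0.0894 at day 6 (SD, n = 12).

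**Figure D1:**
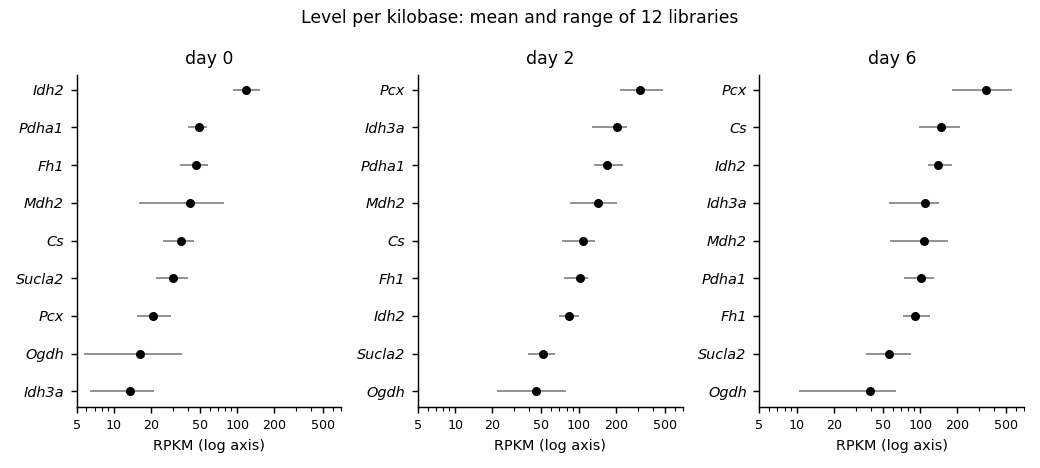
Level per kilobase of exon of the 9 enzymes on each day, in RPKM on a log axis. Points are means and lines the range of 12 libraries. *Idh2* leads at day 0 and *Pcx* at days 2 and 6, and the ranges of most neighbours overlap.

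To ask how the RNAs changed with differentiation, days were compared over both genotypes with a term for the clone. Of the 9, 8 rose from day 0 to day 2, and *Idh2* alone fell. By day 6 all 9 were above day 0. The background was broad, as 35.8% of the 16723 genes tested were higher and 37.5% lower at day 2 than at day 0, and 32.9% were higher at day 6 than at day 0. The median log2 fold change of the 9 was 1.62 at day 2 and 1.29 at day 6, against -0.02 and -0.03 over all genes tested. Between days 2 and 6 the enzymes went apart. *Cs* and *Idh2* rose, *Pdha1* and *Idh3a* fell and the other 5 did not pass the test, where 31.9% of all genes were higher and 30.1% lower. When libraries were scaled by their total count alone, the median of all genes moved by -0.26 at day 2 and by -0.19 at day 6 against day 0, and the share of higher genes among those called went from 48.9% to 33.6% and from 48.2% to 34.9%. Under that scaling the direction of each of the 9 enzymes was the same in both comparisons, and 8 of the 9 were still called at day 6.

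**Figure D2:**
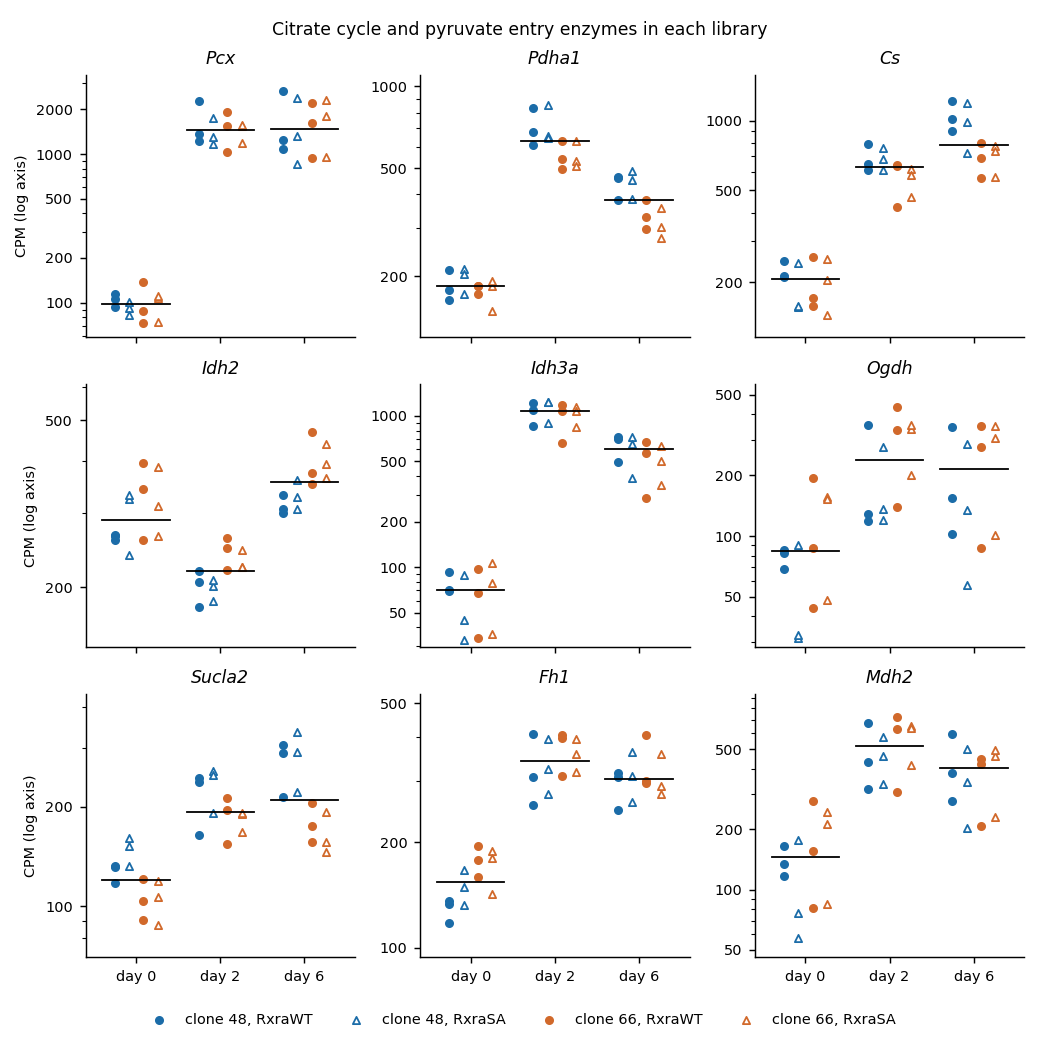
CPM of each enzyme in each of the 36 libraries on a log axis, by day. Colour is the clone, filled circles are *Rxra*WT, open triangles *Rxra*SA, and black lines the median of 12 libraries. Day 2 and day 6 lie above day 0 without overlap for *Pcx*, *Pdha1*, *Cs*, *Idh3a* and *Fh1*, while *Ogdh* and *Mdh2* spread widely within a day and *Idh2* dips at day 2. The share of all genes without such overlap is not given here.

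Of the doors into the cycle, pyruvate carboxylase changed most. *Pcx* had 73.1, 97.8 and 138 CPM at day 0 (lowest, median and highest of 12 libraries), 1029, 1454 and 2283 CPM at day 2, and 855, 1471 and 2640 CPM at day 6. Every library of the later days lay far above every library of day 0. The log2 fold change was 3.92 ± 0.19 (SE) at day 2 and 4.03 ± 0.19 at day 6, a 16.4-fold rise (adjusted p = 2.26e-19). Between days 2 and 6 it was 0.12, with a 95% interval from -0.22 to 0.45 (adjusted p = 0.579). *Pdha1* had 149, 183 and 212 CPM at day 0, 498, 631 and 851 CPM at day 2 and 277, 382 and 487 CPM at day 6. The days did not overlap, and day 6 lay between the others. It rose 3.43-fold by day 2 (log2 fold change 1.78 ± 0.08, adjusted p = 3.63e-20), then fell by 0.74 ± 0.08 on the log2 scale to day 6 (adjusted p = 3.96e-10), and ended 2.05-fold above day 0.

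Citrate synthase joins acetyl-CoA to oxaloacetate and is the entry step of the ring. *Cs* had 144, 207 and 257 CPM at day 0, 423, 627 and 789 CPM at day 2, and 565, 785 and 1216 CPM at day 6. It rose 3.07-fold by day 2 (log2 fold change 1.62 ± 0.12, adjusted p = 1.71e-14) and 4.14-fold by day 6 (2.05 ± 0.12, adjusted p = 5.06e-17). The step from day 2 to day 6 was 0.43 ± 0.11 (adjusted p = 0.00152), though the days overlapped. In clone 48 alone that step was 0.58 (adjusted p = 0.00338), and in clone 66 alone 0.29, which did not pass the test (adjusted p = 0.161).

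The isocitrate dehydrogenases moved in different ways. *Idh3a* had 32.7, 70.0 and 107 CPM at day 0, 657, 1083 and 1243 CPM at day 2, and 285, 601 and 728 CPM at day 6. Its rise by day 2 was 15.2-fold (log2 fold change 3.93 ± 0.21, adjusted p = 2.42e-18), beside 15.1-fold for *Pcx*. *Idh3a* then fell by 0.90 ± 0.18 to day 6 (adjusted p = 6.58e-05) and stayed 8.16-fold above day 0. *Idh2* had 238, 289 and 395 CPM at day 0, 180, 219 and 262 CPM at day 2, and 301, 356 and 469 CPM at day 6. It was the only one of the 9 to fall by day 2, by 0.48 ± 0.07 on the log2 scale (adjusted p = 3.08e-07), and no library of day 6 was as low as the highest of day 2. Its rise from day 2 to day 6 was 0.72 ± 0.07 (adjusted p = 8.77e-11). Day 6 exceeded day 0 by only 0.24 ± 0.07 (adjusted p = 0.00293), with overlapping libraries. This last call was lost when libraries were scaled by total count alone (0.06, adjusted p = 0.522), with a correction for the GC content of transcripts (0.15, adjusted p = 0.118), in clone 48 alone (0.22, adjusted p = 0.0541), and without the libraries of replicate 3 (0.17, adjusted p = 0.0527).

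The steps after α-ketoglutarate are the second decarboxylation and the release of the CoA group. *Ogdh*, the oxoglutarate dehydrogenase of that decarboxylation, had 31.3, 84.0 and 194 CPM at day 0, 118, 239 and 433 CPM at day 2, and 57.4, 215 and 349 CPM at day 6. All days overlapped. Its log2 fold change was 1.47 ± 0.31 at day 2 (adjusted p = 7.18e-05) and 1.29 ± 0.31 at day 6 (adjusted p = 0.000396), with the widest standard errors of the 9. *Sucla2*, the ATP-forming β subunit of succinyl-CoA ligase, had 87.7, 120 and 161 CPM at day 0, 154, 193 and 255 CPM at day 2, and 145, 209 and 336 CPM at day 6. It rose 1.70-fold by day 2 (adjusted p = 5.79e-09) and 1.82-fold by day 6 (adjusted p = 4.39e-10). Within each clone, no library of day 0 reached the lowest of either later day.

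Fumarase and malate dehydrogenase close the ring. *Fh1* had 118, 155 and 196 CPM at day 0, 256, 341 and 408 CPM at day 2, and 247, 304 and 407 CPM at day 6. It rose 2.21-fold by day 2 (adjusted p = 9.10e-14) and was 1.99-fold above day 0 at day 6 (adjusted p = 3.85e-12). *Mdh2* had 57.5, 145 and 278 CPM at day 0, 305, 520 and 724 CPM at day 2, and 202, 404 and 597 CPM at day 6. Its log2 fold change was 1.80 ± 0.23 at day 2 (adjusted p = 1.51e-08) and 1.38 ± 0.23 at day 6 (adjusted p = 2.23e-06). From day 2 to day 6 the values were -0.42 for *Mdh2*, -0.18 for *Ogdh*, -0.15 for *Fh1* and 0.10 for *Sucla2*, none past the test. With the replicate number as a block, *Mdh2* did fall from day 2 to day 6 (-0.45, adjusted p = 0.000346), which made 5 of the 9 called against 67.6% of all genes in that fit. Without the day 6 *Rxra*WT library of clone 48, replicate 3, *Mdh2* was called too (-0.52, adjusted p = 0.0419), and without the day 6 *Rxra*SA library of clone 48, replicate 1, so was *Fh1* (-0.20, adjusted p = 0.0482).

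**Figure D3:**
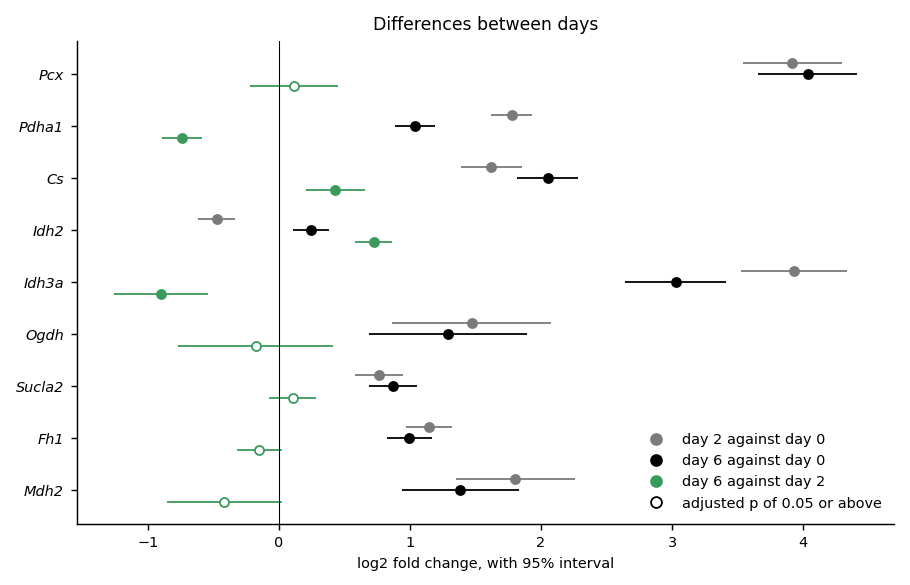
Log2 fold changes between days for each enzyme, with 95% intervals from the fit over all 36 libraries. Filled points passed an adjusted p of 0.05. *Pcx* and *Idh3a* lie near 4 at day 2, *Idh2* alone lies below 0 there, and the day 6 against day 2 values (green) lie on both sides of 0.

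The study asked whether the serine of RXRα matters for gene expression, and none of these enzymes passed the test between *Rxra*SA and *Rxra*WT on any day. *Pcx* at day 6 had 943, 1435 and 2640 CPM in *Rxra*WT (lowest, median and highest of 6 libraries) and 855, 1558 and 2388 CPM in *Rxra*SA. *Cs* had 565, 851 and 1216 CPM in *Rxra*WT and 568, 755 and 1195 CPM in *Rxra*SA on the same day, and the genotypes overlapped over nearly their whole range. The 27 log2 differences of *Rxra*SA from *Rxra*WT, 9 enzymes on 3 days, lay between -0.21 and 0.10, and each had an adjusted p of 1. The widest interval was that of *Ogdh* at day 0, -0.21 ± 0.43 (SE) with a 95% interval from -1.06 to 0.63. With the replicate number as a block it was -0.33 ± 0.21, with an adjusted p of 1 as well. The narrowest was that of *Idh2* at day 6, 0.04 with an interval from -0.16 to 0.24. Among same-numbered pairs of libraries, *Cs* was higher in *Rxra*SA in 1 of 6 pairs at day 0, *Pcx* in 1 of 6 and *Idh3a* in 5 of 6 at day 2, and *Idh3a* in 1 of 6 at day 6. The other 23 combinations of enzyme and day had between 2 and 4. In the background 0% of the 16723 genes were called by edgeR's quasi-likelihood test on each day. Genes at an unadjusted p under 0.05 numbered 139, 162 and 125, in the order of the days. That is fewer than chance alone gives among so many genes. The fit left out the pairing of same-numbered libraries, which deviated together, so its standard errors and intervals can be too wide for this comparison. DESeq2 also called 0, and the most that any alternative called was 5 genes, without a filter on low counts. With the replicate number as a block, at most 3 genes were called in any genotype comparison, and none of the enzymes. Neither the change over time between genotypes nor the genotype effect between clones was called for any of the 9 (0% of all genes in each of these 6 comparisons).

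The clones differed in a few of the enzymes, with the most calls at day 6 in the fit without a replicate block. *Sucla2* had 213, 291 and 336 CPM in the 6 libraries of clone 48 at day 6 (lowest, median and highest) and 145, 166 and 205 CPM in those of clone 66, with no overlap. Its log2 difference of clone 66 from clone 48 was -0.69 ± 0.13 (adjusted p = 0.000121). *Cs* had 722, 997 and 1216 CPM in clone 48 and 565, 711 and 797 CPM in clone 66 (-0.55 ± 0.16, adjusted p = 0.0104), and *Pdha1* had 382, 455 and 487 against 277, 317 and 383 CPM (-0.43 ± 0.11, adjusted p = 0.00286). *Idh2* was higher in clone 66, with 352, 385 and 469 against 301, 318 and 360 CPM (0.31 ± 0.10, adjusted p = 0.0300). These 4 of 9 compare with 26.2% of all genes. At day 0 only *Sucla2* was called (-0.39, adjusted p = 0.0235), where 23.7% of all genes were, and at day 2 only *Pdha1* (-0.36, adjusted p = 0.0111), where 30% were. The call of *Pdha1* at day 2 was lost without the *Rxra*WT or the *Rxra*SA library of clone 48, replicate 2, of that day (adjusted p 0.0557 and 0.0572), without all libraries numbered 1 or 2 (0.0635 and 0.110), and without a filter on low counts (0.0626). The call of *Idh2* at day 6 was lost on leaving out any of 5 libraries of that day, *Rxra*WT of clone 48, replicates 2 and 3, *Rxra*SA of clone 48, replicate 2, and replicate 1 of clone 66 in either genotype (adjusted p between 0.0563 and 0.0907). It was also lost with total count scaling (adjusted p = 0.116), without a filter (0.0776), with GC correction (0.130), and without all libraries numbered 1, 2 or 3 (0.154, 0.184 and 0.0598). Other single libraries added a call. At day 0 these were *Fh1* without the day 2 *Rxra*WT library of clone 48, replicate 3 (0.33, adjusted p = 0.0439), or the day 0 *Rxra*SA library of clone 66, replicate 2 (0.36, adjusted p = 0.0374), and *Idh2* without the day 0 *Rxra*WT library of clone 66, replicate 3 (0.28, adjusted p = 0.0487). At day 2, *Sucla2* was called without the day 2 *Rxra*WT library of clone 48, replicate 3 (-0.35, adjusted p = 0.0346). *Idh2* was called at day 2 without any of 3 libraries of day 0, *Rxra*SA of clone 48, replicate 3, *Rxra*SA of clone 66, replicate 1, and *Rxra*WT of clone 66, replicate 3 (adjusted p between 0.0429 and 0.0493). Without all libraries numbered 2, *Sucla2* was lost at day 0 (-0.32, adjusted p = 0.353), and *Cs* (-0.60, adjusted p = 0.142) and *Pdha1* (-0.38, adjusted p = 0.0641) at day 6.

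With the replicate number as a block within each clone, 5 of the 9 were called on each day, where the share of all genes called was 34.4%, 41.2% and 37.8% in the order of the days. The calls gained were *Idh2* (0.21), *Ogdh* (0.69), *Fh1* (0.32) and *Mdh2* (0.48) at day 0, *Cs* (-0.29), *Idh2* (0.25), *Ogdh* (0.73) and *Sucla2* (-0.26) at day 2, and *Ogdh* (0.46) at day 6, all as log2 differences of clone 66 from clone 48.

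Whether the change over time differed between the clones was tested directly. For none of the 9 did it pass, where 6.84% of all genes passed from day 0 to day 2, 3.85% from day 0 to day 6 and 6.18% from day 2 to day 6. With the replicate block, *Cs* rose less in clone 66 from day 0 to day 6 (difference in log2 fold change -0.48, adjusted p = 0.00894, against 0.284 without the block), where 8.19% of all genes passed. *Sucla2* differed from day 2 to day 6 (-0.42, adjusted p = 0.0127, against 0.195 without the block), where 12.4% did. Within clone 48 alone *Sucla2* rose from day 2 to day 6 (0.34, adjusted p = 0.0367), and within clone 66 alone its value was -0.11 (adjusted p = 0.471).

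The widest spread within a group followed the replicate number. For *Ogdh*, the 4 libraries numbered 1 had 31.3 to 68.7 CPM at day 0, those numbered 2 had 32.4 to 157 CPM and those numbered 3 had 82.2 to 194 CPM. At day 6 the ranges were 57.4 to 102, 135 to 307 and 287 to 349 CPM, so that replicate 1 lay below the others and the others overlapped. In all 12 groups of clone, genotype and day, *Ogdh* was higher in replicate 3 than in replicate 1, by 1.56 ± 0.57 on the log2 scale (mean and SD of 12 groups), which placed it at percentile 99.7 of all genes tested. *Mdh2* was higher in 12 of 12 groups by 1.15 ± 0.39, *Idh3a* in 12 of 12 by 0.81 ± 0.45, *Cs* in 12 of 12 by 0.50 ± 0.19, and *Pcx* in 11 of 12 by 0.76 ± 0.52. *Sucla2* was lower in replicate 3 in 12 of 12 groups (-0.36 ± 0.18), *Idh2* in 12 of 12 (-0.25 ± 0.19) and *Fh1* in 11 of 12 (-0.27 ± 0.16), while *Pdha1* went either way (-0.09 ± 0.22). *Mdh2*, *Idh3a*, *Pcx* and *Cs* lay at percentiles 98.6, 95.4, 94.4 and 87.4 of all genes, and *Idh2* at 27.4. The median absolute difference over all genes was 0.26, so the shifts of *Idh2* and *Fh1* were of ordinary size and that of *Sucla2* somewhat larger. The share of all genes with 1 direction in as many groups is not given here. For *Ogdh* the step between replicate numbers was as large as its rise from day 0 to day 2 (1.47). The median of all genes went from -0.24 in the quintile of genes with the lowest GC content to 0.15 in that with the highest. *Pcx* (57.7% GC, highest quintile) and *Ogdh* (52.5%, next to highest) were higher in replicate 3, the direction of their quintiles. *Sucla2* (43.2%, lowest) and *Pdha1* (45.5%, next to lowest) had negative means, as their quintiles did. *Idh2*, with 55.6% GC, was in the highest quintile and went the other way. *Idh3a*, with 46.9%, was in the next to lowest and was higher in replicate 3. *Cs*, *Fh1* and *Mdh2* were in the middle quintile, which had a median of -0.03. Labels do not say what the replicate number stands for, and its part in the values was not tested. Within a number the days were apart for some enzymes where the pooled days overlapped, but 4 libraries per day separate more easily than 12. *Ogdh* and *Idh2* at day 6 still overlapped day 0 in replicates 1 and 2, and *Ogdh* at day 2 in replicate 2. The share of all genes apart in this way is not given here. *Mdh2* at day 6 had 202 to 277 CPM in replicate 1, 346 to 461 in replicate 2 and 445 to 597 in replicate 3, each above all 4 libraries of the same number at day 0, of which the highest were 117, 213 and 278 CPM.

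**Figure D4:**
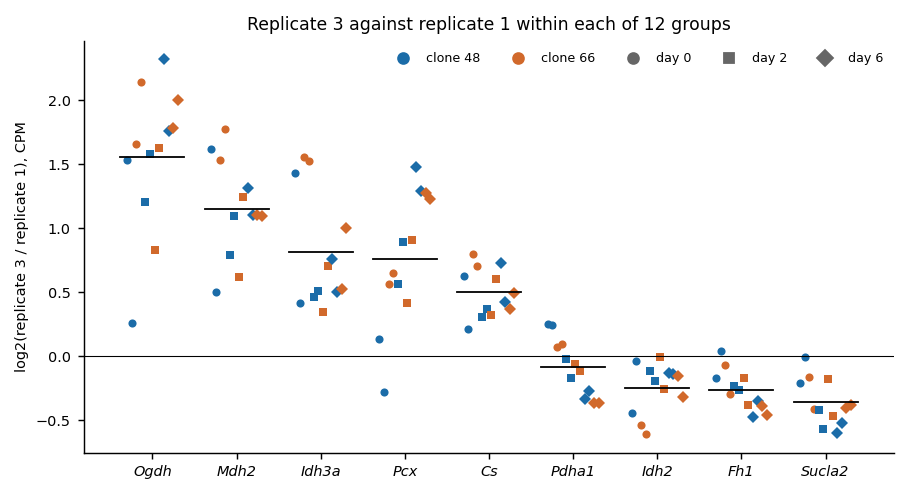
Log2 ratio of the CPM in replicate 3 to that in replicate 1 within each of the 12 groups of clone, genotype and day. Points are groups, coloured by clone and shaped by day, and lines are means. *Ogdh*, *Mdh2*, *Idh3a* and *Cs* lie above 0 in all 12 groups and *Sucla2* and *Idh2* below 0 in all 12.

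The other genes of the pathway mostly rose as well. Of 49 further genes listed by role, 47 were tested, and 37 were higher and 6 lower at day 2 than at day 0, where 35.8% of all genes were higher and 37.5% lower. At day 6, 36 were higher and 5 lower than at day 0, beside 32.9% and 35.4% of all genes. From day 2 to day 6, 12 rose and 20 fell, beside 31.9% and 30.1% of all genes. The mitochondrial pyruvate carrier, through which pyruvate crosses the inner membrane, rose sharply. *Mpc1* went from a median of 19.3 CPM at day 0 to 221 at day 2 and 96.0 at day 6, a log2 fold change of 3.50 ± 0.14 by day 2 and 2.32 ± 0.13 by day 6 (adjusted p = 4.31e-17), and both carrier genes fell from day 2 to day 6. All 4 partners of *Pdha1* in the pyruvate dehydrogenase complex rose on both days, with log2 fold changes from 1.26 to 2.01 at day 6, the largest for *Pdhb*, its β subunit. All 10 other subunits of the cycle, among them aconitase and the subunits of succinate dehydrogenase, rose on both days too, by 0.76 to 1.58 at day 6, the largest for *Sdha*. The 3 lipoylation genes, which attach the cofactor that the pyruvate and oxoglutarate dehydrogenases need, also rose, *Lias* by 1.35 ± 0.07 at day 6.

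Some regulators of pyruvate dehydrogenase parted in time. Kinases of this family switch the complex off by phosphorylating the protein of *Pdha1*, and phosphatases switch it on. *Pdk1* had 3.57, 14.9 and 31.6 CPM at day 0 (lowest, median and highest of 12 libraries), 6.10, 25.6 and 52.1 CPM at day 2 and 437, 723 and 1082 CPM at day 6. Nearly all of its rise, 6.04 ± 0.25 on the log2 scale against day 0 (adjusted p = 1.97e-21), came after day 2, when *Pdha1* fell. The rise of *Pdk1* differed between the clones, by 1.90 ± 0.17 more in clone 66 (adjusted p = 2.30e-08). *Pdk4* went the other way, 2.40 ± 0.16 at day 2 and then -1.47 ± 0.16 from day 2 to day 6 (adjusted p = 6.57e-10). *Pdk3* fell by 1.67 ± 0.08 to day 2. The phosphatase *Pdp1* fell by 1.01 ± 0.12 to day 6 (adjusted p = 2.38e-09), from a median of 54.6 CPM to 26.5 CPM. This was the largest fall from day 0 to day 6 among the kinase and phosphatase genes listed. The remaining ones were called at day 6 too, but their values are not given here, so *Pdp1* does not stand for the phosphatases.

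Of the cytosolic counterparts and users of citrate, 6 of 7 rose by day 6, *Aco1* by 2.43 ± 0.08 (adjusted p = 1.21e-24), while *Acly*, ATP citrate lyase, had a median of 448 CPM at day 0 and 421 CPM at day 6 and was not called (-0.04, adjusted p = 0.693). Of 7 other enzymes that feed or drain the ring, 1 rose and 2 fell by day 6. *Pck1*, cytosolic phosphoenolpyruvate carboxykinase, was at 0 in all 12 libraries of day 0 and had 248 to 691 counts per library at day 6, at least 142-fold higher against a floor of 3 counts per library. *Me3*, a mitochondrial malic enzyme, fell by 4.28 ± 0.23 on the log2 scale (adjusted p = 4.04e-18), from 4.82 to 7.34 CPM to at most 0.681 CPM. *Glud1* (0.18), *Got2* (-0.11), *Pck2* (0.03) and *Me2* (0.14) were not called at day 6, after rises of 1.55, 0.66, 0.94 and 1.45 at day 2. The signs of *Glud1*, *Pck2* and *Me2* at day 6 turned when libraries were scaled by total count alone. *Pck2* went in opposite directions in the clones, falling in clone 48 alone (-0.33, adjusted p = 0.0271) and rising in clone 66 alone (0.39, adjusted p = 0.00092), and the difference between them passed its test (0.71 ± 0.14, adjusted p = 0.00167). *Got2* was called lower with total count scaling (-0.29, adjusted p = 0.000367), with GC correction (-0.26, adjusted p = 0.000504), with GC correction and block (-0.25, adjusted p = 9.87e-05), and without replicate 1 (-0.17, adjusted p = 0.0478). *Glud1* was called higher in clone 48 alone (0.31, adjusted p = 0.0216) and with the compared days alone (0.21, adjusted p = 0.00257), and *Me2* in clone 48 alone (0.32, adjusted p = 0.0439) and without replicate 3 (0.38, adjusted p = 0.0106). *Acly* was called lower with total count scaling (-0.23, adjusted p = 0.0162). Of 6 regulators of mitochondrial gene expression, 5 rose by day 6, *Ppargc1b* by 2.65 ± 0.25 (adjusted p = 2.25e-11), and *Gabpa* was not called (0.09, adjusted p = 0.335). It was called higher with GC correction (0.26, adjusted p = 0.00633), with GC correction and block (0.26, adjusted p = 2.8e-05), and without the day 6 *Rxra*WT library of clone 66, replicate 1 (0.16, adjusted p = 0.0409). *Ogdhl*, the relative of *Ogdh*, never exceeded 1.53 CPM and was lower at day 6 (-2.99, adjusted p = 5.01e-07), and *Csl* and *Pdha2* were too low to be tested.

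**Figure D5:**
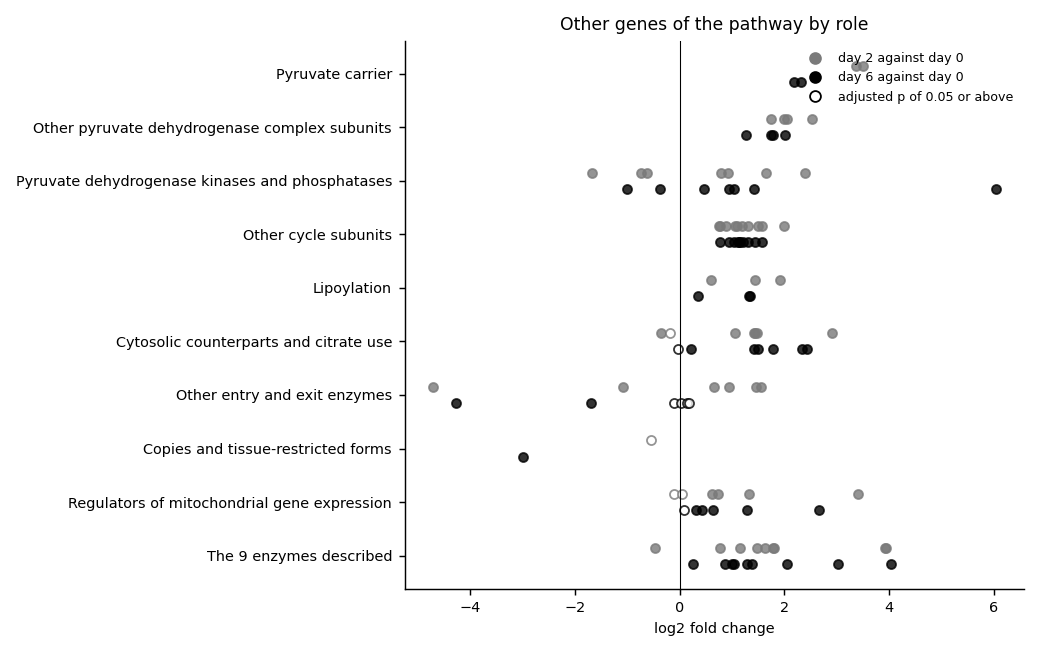
Log2 fold changes of the other pathway genes and, in the lowest row, of the 9 enzymes, at day 2 (grey) and day 6 (black) against day 0. Each point is a gene, and open points did not pass an adjusted p of 0.05. *Pck1*, at 0 in every library of day 0, and *Csl* and *Pdha2*, which were not tested, are left out. Carrier, complex, cycle and lipoylation genes all lie above 0.

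Among the 9, the profiles of *Ogdh* and *Mdh2* were the most alike. Over the 12 group means of log2 CPM, each centred on its own mean, they differed by 0.26 (root mean square), while *Pcx* and *Idh2* differed most, by 1.93. Among all other genes tested, the nearest to *Pdha1* were *Cox5a* (0.06), *Gm5560* (0.09) and *Sfxn1* (0.10), and the nearest to *Fh1* were *Cox5b* (0.07), *Sdhc* (0.07) and *Dhrs7b* (0.07). *Cox5a* and *Cox5b* encode subunits of cytochrome c oxidase. *Pcx* was nearest to *Sh2b2* (0.14), *Aifm2* (0.21) and *Rufy4* (0.28), and *Cs* to *Pcca* (0.14), *Ppp1r3e* (0.18) and *Idh1* (0.19). *Idh3a* was nearest to *Mapk6* (0.21), *Apmap* (0.22) and *Agpat2* (0.27), *Ogdh* to *Pdk2* (0.16), *Txn2* (0.17) and *Rtn4ip1* (0.20), and *Mdh2* to *Ywhag* (0.15), *Vkorc1l1* (0.15) and again *Rtn4ip1* (0.16). *Sucla2* was nearest to *Tank* (0.09), *Atp5mpl* (0.10) and *Gm24119* (0.11), and *Idh2* to *BX649560.1* (0.08), *Sipa1l2* (0.08) and *Cgrrf1* (0.08). The median over all genes tested lay between 0.55 for *Idh2* and 1.89 for *Pcx*, so a small difference is easier to reach for a gene that changes little.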

How the data were processed

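Stranded total RNA libraries, 36 in all, were sequenced. The authors aligned the read pairs to GRCm38 with STAR 2.7.0d and assigned them to GENCODE M21 genes by exon with featureCounts 1.6.2, without use of the strand and without read pairs that map to several places or genes. The deposited counts were neither normalized nor filtered. Groups were taken from the sample titles. Replicates differed by more than sampling noise (chi-square at least 12.0 times its degrees of freedom).

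The filterByExpr function of edgeR 4.0.16 kept 16723 genes, all 9 enzymes among them, and TMM gave the scaling, also for printed CPM. For days and genotypes, the quasi-likelihood test (edgeR) used genotype-by-day coefficients plus 1 for the clone. Clone comparisons used the 12 groups of clone, genotype and day. A gene was called at a Benjamini-Hochberg adjusted p under 0.05 over all genes tested. Standard errors were derived from the F statistic, and 95% intervals are the estimate ± 1.96 standard errors. RPKM is TMM-scaled CPM per kilobase of the exon length in the files. Profiles are log2 CPM (prior count 2). The fits were tested on simulated counts with 200 changed genes. Each simulated library was drawn on its own, without deviations shared by same-numbered libraries, so this test does not cover the pairing.

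Same-numbered libraries of the 2 genotypes deviated together from their group means. The correlation lay between 0.176 and 0.930 over 18 pairs (mean 0.710, 9381 genes), so the numbers pair the samples, and a fit with the replicate number as a block was made. The other alternatives were edgeR's version 4 test, DESeq2 1.42.0, scaling by RLE factors or by library size alone, tests without a filter or with 1 CPM required in 6 libraries, no mitochondrial genes, no clone term, each clone or the compared days alone, CPM per total count and each library left out. A correction for transcript GC content, the same with the block, and the omission of all libraries of 1 replicate number were chosen after seeing the data.

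The 9 enzymes, the pathway roles and the marker lists were chosen with earlier results of these data known. Besides the 9 enzymes, the text names in each role the genes with the largest rise and fall at day 6 and those not called or not tested, and for each enzyme the 3 genes with the nearest profile. *Pdk3*, *Pdk4* and *Ebf2*, *Cd68* and *Des* were named after their values were seen. Sequences are from RefSeq (GRCm38.p6). R 4.3.3, Python 3.11.15, pandas 2.3.3, numpy 2.4.6 and matplotlib 3.10.9 were used.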

Additional observations from a re-analysis of the deposited data

Results flagged for a closer look

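In 54 groups of 6 libraries, 9 enzymes in each genotype and day, 1 library stood apart from the rest of its group by Dixon's criterion. The *Rxra*WT library of clone 66, replicate 3, at day 0 had 194 CPM of *Ogdh*, where the other 5 libraries of that group had 43.9 to 87.4 CPM. Chance alone gives such a library in about 1 of 20 groups. Without it, the log2 difference of *Ogdh* between *Rxra*SA and *Rxra*WT at day 0 was 0.02 instead of -0.21, with an adjusted p of 1 in both cases.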

How the results depend on the processing

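From day 0 to day 2, the rise of 8 enzymes and the fall of *Idh2* were called in 53 of 53 alternatives, and the rises to day 6 likewise except that of *Idh2*, called in 49 of 53. The number of the 9 called stayed at 9 for day 2 and between 8 and 9 for day 6, and the fall of *Pdha1* and *Idh3a* and the rise of *Idh2* after day 2 were called in 53 of 53. No genotype comparison called any of them. Clone comparisons depended on the processing. With the replicate block 5 were called at day 0, day 2 and day 6 and 1 in the change over time between clones for *Cs* and for *Sucla2*. The block changed no other count of the 9 by over 1.5 times, and for *Ogdh* and *Mdh2* it narrowed the standard errors of the day differences, to 0.15 and 0.11 at day 2. With block and GC correction 7 were called from day 2 to day 6, 4 and 6 between clones at days 0 and 2, and 1 in each of the same changes over time. Between clones, the stricter filter gave 2 at day 0, the compared days alone 2 at day 0 and 2 at day 2, GC correction 2 at day 2, and no filter 0 at day 2. Leaving out a library or a replicate number gave 0 to 2 at day 0, 0 to 2 at day 2 and 1 to 4 at day 6.

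These signs turned. From day 2 to day 6 *Sucla2* was -0.11 in clone 66 alone, and *Pcx* was -0.13 with GC correction and -0.17 with GC correction and block. *Ogdh* in *Rxra*SA against *Rxra*WT was 0.14 at day 0 and 0.10 at day 6 in clone 66 alone, and at day 2 it was 0.021 with the block and 0.039 with block and GC correction. At day 6 against day 0, library size alone gave -0.0057 for *Glud1*, -0.16 for *Pck2*, -0.038 for *Me2* and -0.10 for *Gabpa*. No filter gave 0.015 for *Acly*, clone 48 alone -0.33 for *Pck2* (0.39 in clone 66 alone, both called), and GC correction with block -0.00093 for *Pck2*. With libraries left out the ranges were -0.094 to 0.052 for *Acly*, -0.033 to 0.38 for *Me2*, -0.0058 to 0.10 for *Pck2* and -0.060 to 0.23 for *Pcx* from day 2 to day 6. For *Ogdh* between genotypes they were -0.40 to 0.020, -0.27 to 0.17 and -0.41 to 0.19 at days 0, 2 and 6. The causes were not tested. Depth limited none of the 9, whose lowest count was 386, but it limited *Ogdhl*, *Me3* and *Pck1* on the days when they had few counts.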
